A study of Homo sapiens with 12 samples.

Results

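The hypoxia-inducible factor (HIF) subunits and the oxygen-sensing proteins that regulate them were followed as 10 genes in HCT116 cells, a human colorectal carcinoma line, treated with dolastatin 15 or with solvent. The 10 genes were the rows of a table of 58174 genes whose GENCODE 29 symbol was HIF1A, EPAS1, ARNT, HIF1AN, EGLN1, EGLN2, EGLN3, VHL, EP300 or CREBBP, named as a set because the study's paper links the drug to HIF signalling. Dolastatin 15 is a peptide that binds tubulin and disrupts microtubules. There were 6 groups of 2 libraries each: 20 nM, 100 nM and solvent for 16 h, and 20 nM, 100 nM and solvent for 24 h. Cells of all 6 groups received DMSO, the solvent of the drug, and all came from the same line in DMEM with serum. Poly(A)-selected RNA was sequenced, and levels are in FPKM, fragments relative to transcript length and library size.

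A HIF is a heterodimer of an oxygen-regulated alpha subunit (HIF-1alpha from HIF1A, or HIF-2alpha from EPAS1) and a constitutive beta subunit (ARNT). When oxygen is available, the prolyl hydroxylases encoded by EGLN1, EGLN2 and EGLN3 mark the alpha subunit for the von Hippel-Lindau ubiquitin ligase (VHL), and the asparaginyl hydroxylase encoded by HIF1AN, called factor inhibiting HIF, blocks its contact with the coactivators p300 (EP300) and CBP (CREBBP). Much of this control acts on the alpha protein, which RNA levels do not measure.

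HIF1AN RNA was lower in drug-treated cells at both doses and both times, by 39.0 to 40.4% in 3 of the comparisons and by 21.9% at 20 nM for 24 h. CREBBP was higher at 20 nM for 16 h by 22.9%. EGLN3 was at or under 1.25 FPKM in every library and had its lowest group mean at 100 nM for 24 h. The other 7 genes, among them HIF1A, EPAS1, ARNT and VHL, passed the test at neither dose and neither time.

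The libraries are numbered here as in the deposited table. For 16 h, the 20 nM libraries were numbers 1 and 2, the 100 nM libraries 3 and 4, and the solvent libraries 5 and 6. For 24 h, the 20 nM libraries were numbers 7 and 8, the 100 nM libraries 9 and 10, and the solvent libraries 11 and 12. FPKM summed to 911720 to 1049886 per library, and 20368 to 21519 genes were above 0. The read depth behind an FPKM is unknown, so no counting interval is given. Epithelial keratins were high (KRT8 at 409.6 to 458.2 FPKM), VIL1 stayed at 0.06 to 0.22 FPKM, and the leukocyte gene PTPRC did not exceed 0.02 FPKM. Of the 12 markers of other cell types, 2 were not near 0 in any library, CD68 at 7.04 to 18.95 FPKM and COL1A1 at 1.44 to 4.34 FPKM, and the other 10 did not exceed 0.90 FPKM.

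Libraries 7 and 8, both 20 nM for 24 h, stood apart from each other in these genes. Of the 10 genes, 7 were higher in library 8 than in library 7, by a median of 0.14 over the 10 on the log2(FPKM + 1) scale, and EPAS1 differed most, by 0.92. Over 11660 protein-coding genes, split by length into 4 equal bins, library 8 minus library 7 had a median of 0.06 in the bin of longest transcripts and -0.08 in the bin of shortest. The mitochondrial share of FPKM was 23.8% in library 7 and 25.8% in library 8, against 17.9% and 18.6% in the solvent libraries of that time. The part of these differences in the results at 20 nM for 24 h was not tested. Other pairs shared some of these features. In library 4, 8 of the 10 genes were higher than in library 3, by a median of 0.04. Library 4 minus library 3 had a median of 0.05 in the bin of longest transcripts and -0.02 in the shortest. The mitochondrial share was 22.2% and 24.5% in libraries 3 and 4, and 18.8% and 20.7% in libraries 9 and 10. The plot of library pairs shows that no other pair reaches the EPAS1 difference of libraries 7 and 8.

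**Figure D1:**
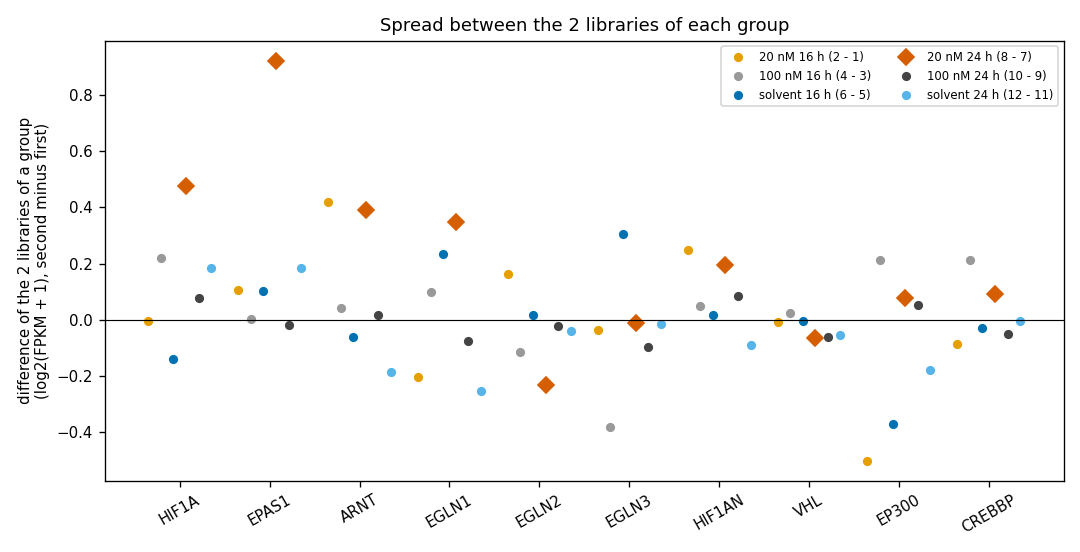
Difference between the 2 libraries of each group for each gene, as log2(FPKM + 1) of the second library minus the first; diamonds are libraries 8 and 7 (20 nM, 24 h), and circles are the other 5 groups. The EPAS1 diamond, at 0.92, is the farthest point from 0 on the plot.

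Levels were tested with limma on log2(FPKM + 1), fitted to all 12 libraries and to 13458 genes with at least 1 FPKM in at least 2 libraries. P-values were two-sided and adjusted by the Benjamini-Hochberg method over all of those genes, and a gene was called at an adjusted p under 0.05. All 10 members passed the filter, EGLN3 through 3 solvent libraries alone (6, 11 and 12), so a difference in EGLN3 was built into its entry and its calls in this fit support nothing. EGLN3 is therefore read from a fit with no filter on low values. The labels do not say whether the duplicates came from separate cultures, so the p-values measure the spread between these libraries, which may be technical. A log2 change on this scale understates the change of low genes. In bulk RNA, fewer cells with a transcript and less of that transcript per cell cannot be told apart.

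At 20 nM for 16 h, 2 of the 10 members were called, CREBBP higher and HIF1AN lower, against 17.7% of all tested genes (6.78% higher and 11% lower). HIF1AN alone was called at 100 nM for 16 h, 1 of 10, against 23.8% of all tested genes (9.16% higher and 14.7% lower). EGLN3 and HIF1AN were called at 20 nM for 24 h, 2 of 10 and both lower, against 28.8% of all tested genes (14.7% higher and 14.1% lower). The same pair was called lower at 100 nM for 24 h, 2 of 10 against 33.8% (15.4% higher and 18.4% lower). Without EGLN3, HIF1AN was 1 of 9 at each dose for 24 h. The members' share called was thus near or below the background in each comparison. The median log2 change of the 10 was 0.05 at 20 nM and -0.04 at 100 nM for 16 h, and -0.07 at each dose for 24 h, where the medians over all tested genes lay between -0.03 and 0.00.

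**Figure D2:**
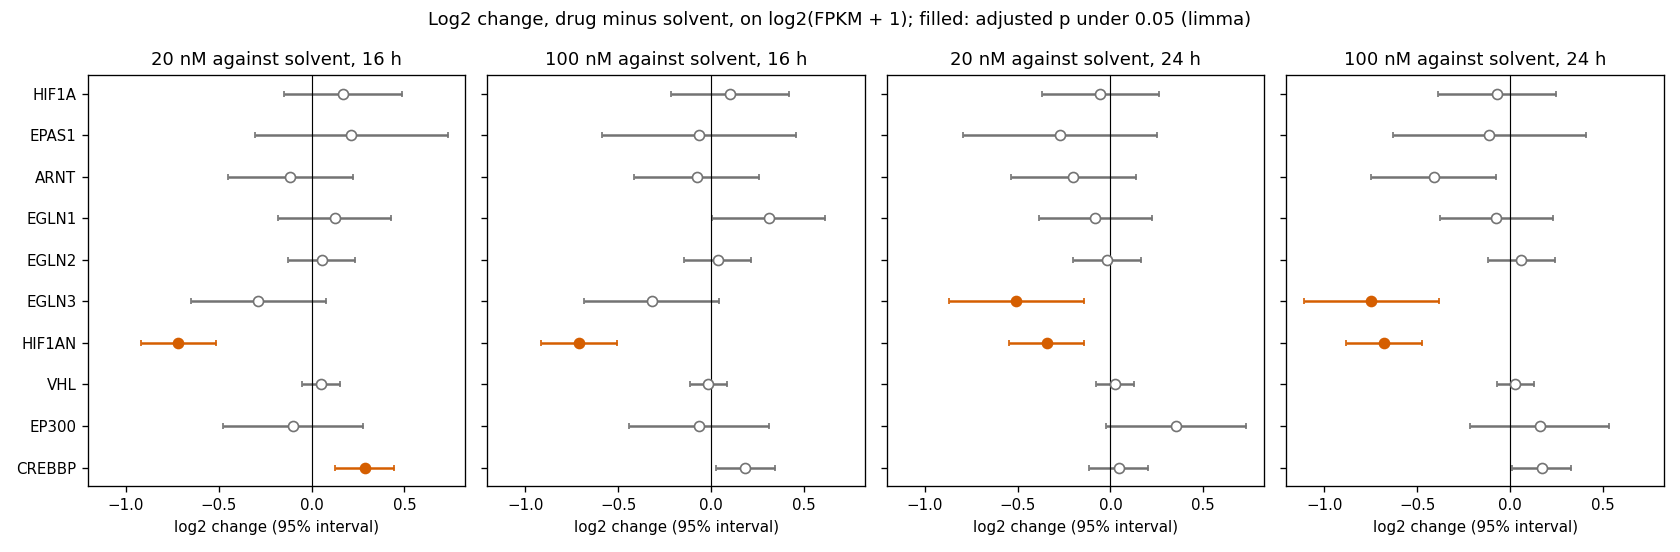
Log2 change of each gene on the log2(FPKM + 1) scale, drug minus solvent, with its 95% interval, in each of the 4 drug comparisons (n = 2 libraries per group); filled points have a limma adjusted p under 0.05. HIF1AN is filled in all 4 panels, EGLN3 at 24 h and CREBBP at 20 nM for 16 h. EGLN3 entered this fit through solvent libraries alone, so its filled points support nothing. With no filter on low values, its change at 20 nM for 24 h did not pass (limma adjusted p = 0.0575).

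To show the sequence around the start of the genes with lower levels at 24 h, and of a prolyl hydroxylase gene that carries a HIF core motif, the RefSeq promoter windows of HIF1AN, EGLN3 and EGLN1 follow, 250 bases before to 50 bases after the start site on GRCh38.p14, with each ACGTG in capitals. HIF1AN lies at chr10:100535693-100535992 on the plus strand, EGLN3 at chr14:33951025-33951324 on the minus strand and EGLN1 at chr1:231422238-231422537 on the minus strand.
HIF1AN: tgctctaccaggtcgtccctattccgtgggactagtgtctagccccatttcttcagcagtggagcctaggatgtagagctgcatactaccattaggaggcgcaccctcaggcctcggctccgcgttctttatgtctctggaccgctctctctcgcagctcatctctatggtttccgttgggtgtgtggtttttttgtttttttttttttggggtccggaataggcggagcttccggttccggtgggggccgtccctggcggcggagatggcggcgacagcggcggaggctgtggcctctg
EGLN3: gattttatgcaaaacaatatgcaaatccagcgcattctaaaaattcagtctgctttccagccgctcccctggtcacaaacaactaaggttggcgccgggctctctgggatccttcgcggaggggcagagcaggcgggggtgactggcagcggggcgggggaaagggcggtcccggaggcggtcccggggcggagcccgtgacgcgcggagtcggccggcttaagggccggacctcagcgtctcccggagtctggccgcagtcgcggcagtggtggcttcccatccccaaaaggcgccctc
EGLN1: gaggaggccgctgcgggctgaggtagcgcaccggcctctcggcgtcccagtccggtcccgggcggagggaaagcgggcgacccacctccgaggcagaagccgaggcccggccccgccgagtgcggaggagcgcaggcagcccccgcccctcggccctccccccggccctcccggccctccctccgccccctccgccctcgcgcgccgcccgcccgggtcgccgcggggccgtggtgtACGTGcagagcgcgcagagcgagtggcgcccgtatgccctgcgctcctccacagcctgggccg

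ACGTG and GCGTG, the core letters bound by HIF dimers, were searched on both strands. EGLN1 held 1 match, an ACGTG beginning 13 bases before its start site, and the windows of HIF1AN and EGLN3 held none of either. Of the 9 members with a window, 5 held at least 1 match (HIF1A, EPAS1, EGLN1, EGLN2 and CREBBP), and EGLN2 held 2 that overlap each other. Either core occurred in 48.4% of 35116 RefSeq promoter windows and ACGTG in 21.4%, so a match describes the letters only. VHL has no window in the table used.

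Per kilobase of transcript, HIF1A was the most abundant member in each of the 12 libraries and EGLN2 was next in each. EPAS1 ranked ninth and EGLN3 last in each library. HIF1A had 60.45 and 60.23 FPKM at 20 nM and 53.29 and 62.26 FPKM at 100 nM for 16 h, against 56.24 and 50.99 FPKM in solvent. For 24 h it had 52.41 and 73.27 FPKM at 20 nM and 59.65 and 62.97 FPKM at 100 nM, against 60.35 and 68.69 FPKM in solvent. Drug and solvent ranges overlapped for this alpha subunit in every comparison but 20 nM for 16 h, where both treated libraries were above both solvent ones. Its log2 changes were 0.17 (95% interval -0.15 to 0.49) at 20 nM and 0.10 (-0.21 to 0.42) at 100 nM for 16 h. At 24 h they were -0.05 (-0.37 to 0.26) at 20 nM and -0.07 (-0.39 to 0.25) at 100 nM. The adjusted p from limma was 0.444 to 0.806, so changes of either sign within these intervals could not be told from 0. AL137129.1, a transcript on the same strand within the HIF1A span, had 4.78 and 2.12 FPKM at 20 nM for 16 h, against 0 and 0.78 FPKM in solvent, so no fold is given for it. RSEM may have divided reads of the shared stretch between it and HIF1A. With the FPKM of both added, HIF1A passed in no drug comparison. How such reads were divided was not tested.

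**Figure D3:**
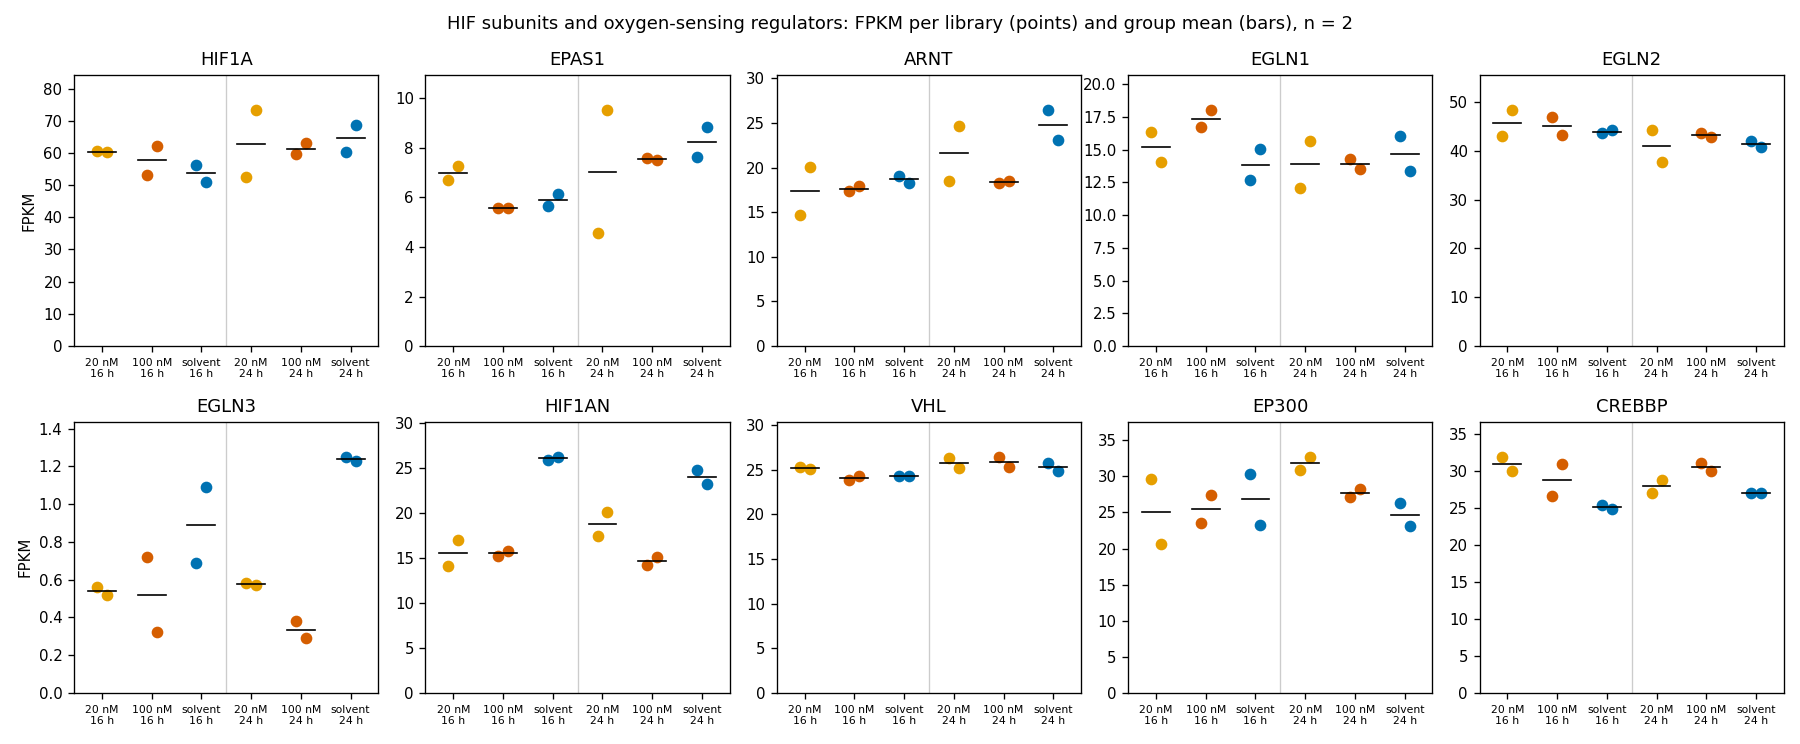
FPKM of each of the 10 genes in each library (points) with the mean of each group (bars), for 20 nM, 100 nM and solvent at 16 h and at 24 h; each panel starts at 0 and has its own scale. HIF1AN is between 14.1 and 20.1 FPKM in the 8 drug libraries and between 23.3 and 26.3 FPKM in the 4 solvent libraries.

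EPAS1, the alpha subunit of HIF-2, had 6.70 and 7.28 FPKM at 20 nM and 5.57 and 5.59 FPKM at 100 nM for 16 h, against 5.64 and 6.13 FPKM in solvent. At 24 h, EPAS1 had 4.55 and 9.52 FPKM at 20 nM and 7.59 and 7.49 FPKM at 100 nM, against 7.65 and 8.83 FPKM in solvent. The pair at 20 nM for 24 h (libraries 7 and 8) spanned the solvent libraries on both sides. EPAS1 did not pass the test in any drug comparison (limma adjusted p 0.413 to 0.874, log2 changes -0.27 to 0.21). Its value at 20 nM for 24 h moved as far without either library of the pair: without library 8 the log2 change was -0.73 (adjusted p = 0.00218), and without library 7 it was 0.19 (adjusted p = 0.188). The adjusted p of that comparison ranged from 0.00218 to 0.714 over the settings tried. Without library 8 the EPAS1 log2 change between 100 nM and 20 nM at 24 h was 0.62 (limma adjusted p = 0.726 with all libraries). In the change of the 20 nM effect from 16 h to 24 h it was -0.95 (limma adjusted p = 0.372 with all libraries). Between solvent at 24 h and at 16 h the EPAS1 log2 change was 0.42 (limma adjusted p = 0.289). It stayed at 0.42 without library 7 or 8, neither of them a solvent library. Leaving out 1 of that pair removes the pair's spread from the estimate for every gene, so no call is read from those fits. The HIF1A level per kilobase was 7.70 to 11.5 times that of EPAS1 in drug libraries and 7.78 to 9.97 times in solvent libraries.

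ARNT, the shared beta subunit, had 14.70 and 20.02 FPKM at 20 nM and 17.38 and 17.91 FPKM at 100 nM for 16 h, against 19.10 and 18.26 FPKM in solvent. At the later time ARNT had 18.54 and 24.65 FPKM at 20 nM and 18.24 and 18.46 FPKM at 100 nM, against 26.44 and 23.11 FPKM in solvent. Both 100 nM libraries at 24 h were below both solvent libraries. The log2 change there was -0.41 (95% interval -0.75 to -0.07, limma adjusted p = 0.0614), which did not pass. With all libraries scaled to a common sum (TPM) it was -0.50 (adjusted p = 0.0281), a scaling that put the median of all tested genes at -0.11. Without library 1, 2, 7 or 8, none of them in this comparison, the ARNT log2 change stayed at -0.41. Its limma adjusted p ranged from 0.0281 to 0.254 over the settings tried. Solvent libraries at 24 h were higher than at 16 h by 0.39 (95% interval 0.05 to 0.72), with an adjusted p of 0.149, against 5.62% of genes called.

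The 3 prolyl hydroxylase genes differed widely in level. EGLN2 alone made up 69.8 to 77.8% of their summed FPKM across the 8 drug libraries and 70.8 to 76.6% in the 4 solvent libraries. EGLN2, the prolyl hydroxylase also called PHD1, had 43.03 and 48.29 FPKM at 20 nM and 46.86 and 43.22 FPKM at 100 nM for 16 h, against 43.60 and 44.15 FPKM in solvent. By 24 h EGLN2 had 44.31 and 37.58 FPKM at 20 nM and 43.52 and 42.86 FPKM at 100 nM, against 41.94 and 40.78 FPKM in solvent. Its log2 changes were -0.02 to 0.06, and its intervals bounded the change between -0.20 and 0.24. RAB4B-EGLN2, a readthrough gene on the same strand, had 1.18 and 0 FPKM at 100 nM for 16 h, against 3.03 and 3.08 FPKM in solvent. RSEM may have divided reads between it and EGLN2. With the FPKM of both added, EGLN2 passed in no drug comparison. The RAB4B-EGLN2 call at that dose and time (limma adjusted p = 0.0188) ended without library 4, 5 or 6.

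EGLN1, or PHD2, the main oxygen sensor for HIF-1alpha in many cells, had 16.33 and 14.06 FPKM at 20 nM and 16.74 and 18.02 FPKM at 100 nM for 16 h, against 12.66 and 15.06 FPKM in solvent. Its 24 h levels were 12.10 and 15.66 FPKM at 20 nM and 14.28 and 13.49 FPKM at 100 nM, against 16.07 and 13.34 FPKM in solvent. Only at 100 nM for 16 h did the groups not overlap. The log2 change there was 0.31 (95% interval 0.01 to 0.62, limma adjusted p = 0.130) and did not pass. The other 3 EGLN1 changes were -0.08 to 0.13.

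EGLN3, or PHD3, a prolyl hydroxylase gene known as a HIF target, had 0.56 and 0.52 FPKM at 20 nM and 0.72 and 0.32 FPKM at 100 nM for 16 h, against 0.69 and 1.09 FPKM in solvent. The 24 h libraries had EGLN3 at 0.58 and 0.57 FPKM at 20 nM and 0.38 and 0.29 FPKM at 100 nM, against 1.25 and 1.23 FPKM in solvent. Both drug groups were below both solvent libraries at 24 h, and the 100 nM group overlapped solvent at 16 h. In the fit with no filter, EGLN3 fell by 0.75 at 100 nM for 24 h on the log2(FPKM + 1) scale (SE 0.14, limma adjusted p = 0.0113). In that fit the change of -0.51 at 20 nM for 24 h did not pass (SE 0.14, adjusted p = 0.0575), nor did those of -0.29 at 20 nM and -0.32 at 100 nM for 16 h (adjusted p = 0.337 and 0.245). With the filter, through which EGLN3 entered by its solvent libraries, the adjusted p at 24 h was 0.0430 at 20 nM and 0.00740 at 100 nM. That call at 20 nM ended without any 1 of libraries 1, 2, 7, 8, 9, 10, 11 or 12 (adjusted p 0.0579 to 0.144). SPTSSA, a gene on the same strand within the EGLN3 span, stood at 14.84 to 19.44 FPKM. At 100 nM for 24 h its log2 change was 0.21 (limma adjusted p = 0.0175), of opposite sign to that of EGLN3, and that call ended without library 9 or 11 (adjusted p 0.0978 to 0.104). The share of its reads in the EGLN3 values was not tested.

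HIF1AN encodes the asparaginyl hydroxylase, and in GENCODE 29 it spans chr10:100529072-100559998 on the plus strand of GRCh38. It had 14.12 and 16.96 FPKM at 20 nM and 15.27 and 15.83 FPKM at 100 nM for 16 h, against 25.93 and 26.25 FPKM in solvent. For 24 h it had 17.42 and 20.08 FPKM at 20 nM and 14.19 and 15.10 FPKM at 100 nM, against 24.79 and 23.25 FPKM in solvent. All 8 drug libraries were below all 4 solvent libraries. At 16 h HIF1AN fell by 0.72 at 20 nM (SE 0.09, limma adjusted p = 0.00114) and by 0.71 at 100 nM (SE 0.09, adjusted p = 0.000740) on the log2(FPKM + 1) scale. At 24 h it fell by 0.34 at 20 nM (SE 0.09, limma adjusted p = 0.0202) and by 0.68 at 100 nM (SE 0.09, adjusted p = 0.000718). The call at 20 nM for 24 h ended without library 7 (-0.25, adjusted p = 0.106), 11 (-0.30, adjusted p = 0.114) or 12 (-0.39, adjusted p = 0.0512), and that at the other 3 comparisons held without each library in turn.

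Over part of its length HIF1AN overlaps NDUFB8, a respiratory chain subunit gene on the opposite strand with 211.1 to 267.8 FPKM. NDUFB8 had log2 changes of 0.04 at 20 nM and 0.08 at 100 nM for 16 h, and of 0.07 at 20 nM for 24 h, and passed the test at 100 nM for 24 h, where it rose by 0.25 (limma adjusted p = 0.0324), a call that ended without library 9, 10 or 12 (adjusted p 0.108 to 0.181). The library kit was directional per the labels' protocols, but the strand setting of the counting is not given. Whether reads of the overlapping stretch were assigned by strand is therefore unknown. AL133352.1, also on the opposite strand of HIF1AN, had 2.24 to 4.77 FPKM, and the antisense genes HIF1A-AS1, HIF1A-AS2, EGLN3-AS1 and EP300-AS1 did not exceed 0.28 FPKM. The ratio of HIF1A to HIF1AN, both per kilobase, was 3.49 to 4.28 in the 4 drug libraries and 1.94 to 2.17 in the solvent libraries at 16 h. At 24 h it was 3.01 to 4.20 in drug libraries and 2.43 to 2.95 in solvent libraries. All drug libraries were thus above the solvent libraries of their time in this ratio. The ratio holds the HIF1AN values already given, so it is not a separate result. At 24 h the nearest were drug library 7 at 3.01 and solvent library 12 at 2.95.

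VHL, the substrate-recognition subunit of the ligase, had the smallest standard error of the 10 genes. It had 25.24 and 25.08 FPKM at 20 nM and 23.80 and 24.23 FPKM at 100 nM for 16 h, against 24.30 and 24.24 FPKM in solvent. VHL at 24 h had 26.35 and 25.16 FPKM at 20 nM and 26.41 and 25.29 FPKM at 100 nM, against 25.79 and 24.83 FPKM in solvent. The log2 changes were -0.01 to 0.05, and the 95% intervals bounded them between -0.12 and 0.15 over the 4 comparisons. Under the common-sum scaling the change at 20 nM for 24 h was -0.16 (limma adjusted p = 0.0306), where the median of all tested genes was also -0.16.

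Among the coactivators, CREBBP (CBP) had 31.91 and 29.98 FPKM at 20 nM and 26.63 and 31.00 FPKM at 100 nM for 16 h, against 25.42 and 24.93 FPKM in solvent. CREBBP at 24 h had 26.99 and 28.86 FPKM at 20 nM and 31.10 and 30.03 FPKM at 100 nM, against 27.09 and 27.00 FPKM in solvent. Drug libraries lay above solvent in every comparison but 20 nM for 24 h, where library 7 was below both. At 20 nM for 16 h CREBBP rose by 0.29 (SE 0.07, limma adjusted p = 0.0234). That call ended without library 1, 2, 5 or 6 (adjusted p 0.0609 to 0.138). At 100 nM the changes were 0.18 (adjusted p = 0.0896) for 16 h and 0.17 (adjusted p = 0.0901) for 24 h, which did not pass. They passed without library 3, at 0.29 (adjusted p = 0.0206) for 16 h and 0.17 (adjusted p = 0.0373) for 24 h, and the 24 h change also without library 4 (adjusted p = 0.0374). With median-of-ratios scaling they passed as well, at 0.22 (adjusted p = 0.0396) for 16 h and 0.20 (adjusted p = 0.0411) for 24 h. EP300 (p300), the paralogous acetyltransferase, had 29.58 and 20.62 FPKM at 20 nM and 23.49 and 27.39 FPKM at 100 nM for 16 h, against 30.38 and 23.28 FPKM in solvent. EP300 at 24 h had 30.93 and 32.68 FPKM at 20 nM and 27.12 and 28.20 FPKM at 100 nM, against 26.31 and 23.11 FPKM in solvent. Its duplicates at 20 nM for 16 h differed by 0.50 on the log2 scale, and its largest change, 0.35 (95% interval -0.02 to 0.73) at 20 nM for 24 h, did not pass (limma adjusted p = 0.145), while a fit of the 24 h libraries alone called it (adjusted p = 0.0304).

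Comparing the doses, no member was called at 16 h, against 0.32% of all genes, or at 24 h, against 4.88%. By limma, 0 and 1 of the 10 had an unadjusted p under 0.05 at the 2 times. The 1 was HIF1AN, which at 24 h had 14.19 and 15.10 FPKM at 100 nM, against 17.42 and 20.08 FPKM at 20 nM, a log2 change of -0.33 (95% interval -0.54 to -0.13, adjusted p = 0.0703). At 16 h its difference between the doses was 0.01 (95% interval -0.20 to 0.21). The change of the 20 nM effect between the times was 0.37 for HIF1AN (95% interval 0.09 to 0.66, adjusted p = 0.0917), so the smaller fall at 20 nM for 24 h was not shown to differ from that at 16 h. Without library 7 the dose difference was -0.43 and the change of effect 0.47, and without library 2 the change of effect was 0.50. Each of these fits leaves 1 library in a group, so no call is read from them. No member passed in the change of either dose's effect, against 11.5% and 10.2% of genes, and 2 and 0 of them had an unadjusted p under 0.05. No member passed between solvent at 24 h and at 16 h, against 5.62%, where 1 (ARNT) had an unadjusted p under 0.05.

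Over the 4 drug comparisons, the genes whose log2 changes lay closest to those of HIF1AN, by Euclidean distance among 9069 genes, were BDNF (distance 0.105), PSAT1 (0.113) and MICALL2 (0.114). Within 0.2 of HIF1AN lay 21 genes, against 645 for HIF1A, whose closest were NFATC3 (0.0392), UGGT2 (0.0483) and PPM1B (0.0499). These counts depend on the size of the changes as well as on their pattern. By size at 20 nM for 16 h, HIF1AN ranked 316 and HIF1A 5569 among 13458 tested genes. The distances use 4 changes per gene, which share solvent libraries within a time.

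Genes around the members were read from 5 lists, whose counts stand against the shares of all tested genes called: 6.78% higher and 11% lower at 20 nM and 9.16% and 14.7% at 100 nM for 16 h, and 14.7% and 14.1% at 20 nM and 15.4% and 18.4% at 100 nM for 24 h. The median log2 change of all tested genes in these comparisons, in the same order, was -0.02, -0.03, 0.00 and -0.02. Among 8 tested other bHLH-PAS subunits, 1 rose and 1 fell at 20 nM and 1 rose and 2 fell at 100 nM for 16 h, while none rose and 1 fell at 20 nM and 1 rose and 3 fell at 100 nM for 24 h, with list medians of -0.17 at 20 nM and -0.16 at 100 nM for 16 h and -0.03 at 20 nM and -0.28 at 100 nM for 24 h. ARNTL2, a partner of the CLOCK proteins, had 10.98 and 11.43 FPKM at 100 nM for 24 h, against 17.65 and 16.41 FPKM in solvent, and fell by 0.40 to 0.56 in all 4 comparisons (limma adjusted p 0.000361 to 0.00387). Among 7 pVHL ligase partners, 1 rose and none fell at 20 nM and none rose and 1 fell at 100 nM for 16 h, and 1 and 2 rose and none fell at 20 nM and 100 nM for 24 h, against 28.8% and 33.8% of all genes called in either direction. The list medians were 0.05 at each dose for 16 h, and 0.09 at 20 nM and 0.23 at 100 nM for 24 h. ELOC, the elongin C adaptor of VHL, had 164.36 and 164.29 FPKM at 100 nM for 24 h, against 112.08 and 123.66 FPKM in solvent, and rose by 0.48 (SE 0.08, adjusted p = 0.00176).

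Of 21 tested modulators of HIF stability and activity, 1 rose and 2 fell at each dose at 16 h, 2 rose and 1 fell at 20 nM for 24 h, and 2 rose and 5 fell at 100 nM for 24 h. That is 3 of 21 at 16 h, against 17.7% of all genes at 20 nM and 23.8% at 100 nM, and 7 of 21 at 100 nM for 24 h, against 33.8%. The list medians were between 0.00 and 0.04. SIAH2, a ubiquitin ligase that targets prolyl hydroxylases, had 33.57 and 34.51 FPKM at 100 nM for 16 h, against 27.51 and 28.64 FPKM in solvent, and rose by 0.27 (limma adjusted p = 0.00264). SENP1, a SUMO protease, had 7.11 and 7.55 FPKM at 100 nM for 16 h, against 11.54 and 9.97 FPKM in solvent, and fell by 0.49 (limma adjusted p = 0.00209). Of 9 other oxygen-dependent dioxygenases, 2 rose and 1 fell at 20 nM for 16 h, 1 rose and 2 fell at 100 nM for 16 h and at 20 nM for 24 h, and 2 rose and 1 fell at 100 nM for 24 h. In the same order, 17.7%, 23.8%, 28.8% and 33.8% of all tested genes were called in either direction. The medians of the dioxygenases were -0.01 at 20 nM and -0.07 at 100 nM for 16 h, and -0.06 at 20 nM and -0.12 at 100 nM for 24 h.

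Of 37 tested HIF target genes, 2 rose and 4 fell at 20 nM and 3 rose and 7 fell at 100 nM for 16 h, and 9 rose and 3 fell at 20 nM and 9 rose and 7 fell at 100 nM for 24 h. Their median log2 change was -0.08 at each dose at 16 h, and 0.07 at 20 nM and 0.10 at 100 nM for 24 h, against -0.03 to 0.00 for all tested genes. Those called in either direction were 6 of 37 at 20 nM and 10 of 37 at 100 nM for 16 h, against 17.7% and 23.8% of all tested genes, and 12 of 37 at 20 nM and 16 of 37 at 100 nM for 24 h, against 28.8% and 33.8%. VEGFA, the angiogenic growth factor, had 13.04 and 15.80 FPKM at 100 nM for 16 h, against 26.93 and 28.30 FPKM in solvent, and fell by 0.90 (limma adjusted p = 0.000323). P4HA2, a collagen prolyl hydroxylase subunit, had 11.99 and 12.75 FPKM at 100 nM for 24 h, against 31.05 and 30.57 FPKM in solvent, and fell by 1.25 (adjusted p = 2.13e-05). HK2, a hexokinase, had 23.75 and 23.20 FPKM at 100 nM for 16 h, against 17.91 and 17.58 FPKM in solvent, and rose by 0.38 (adjusted p = 0.000489). STC2 had 40.17 and 34.63 FPKM at 100 nM for 24 h, against 19.45 and 19.48 FPKM in solvent. It rose by 0.90 (limma adjusted p = 0.000446). The listed genes named here were chosen after their values were seen, and the other 7 calls at 100 nM held without each library in turn. The STC2 call was not refitted that way. The plot of lists shows filled points on both sides of 0 for the target genes in every panel.

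**Figure D4:**
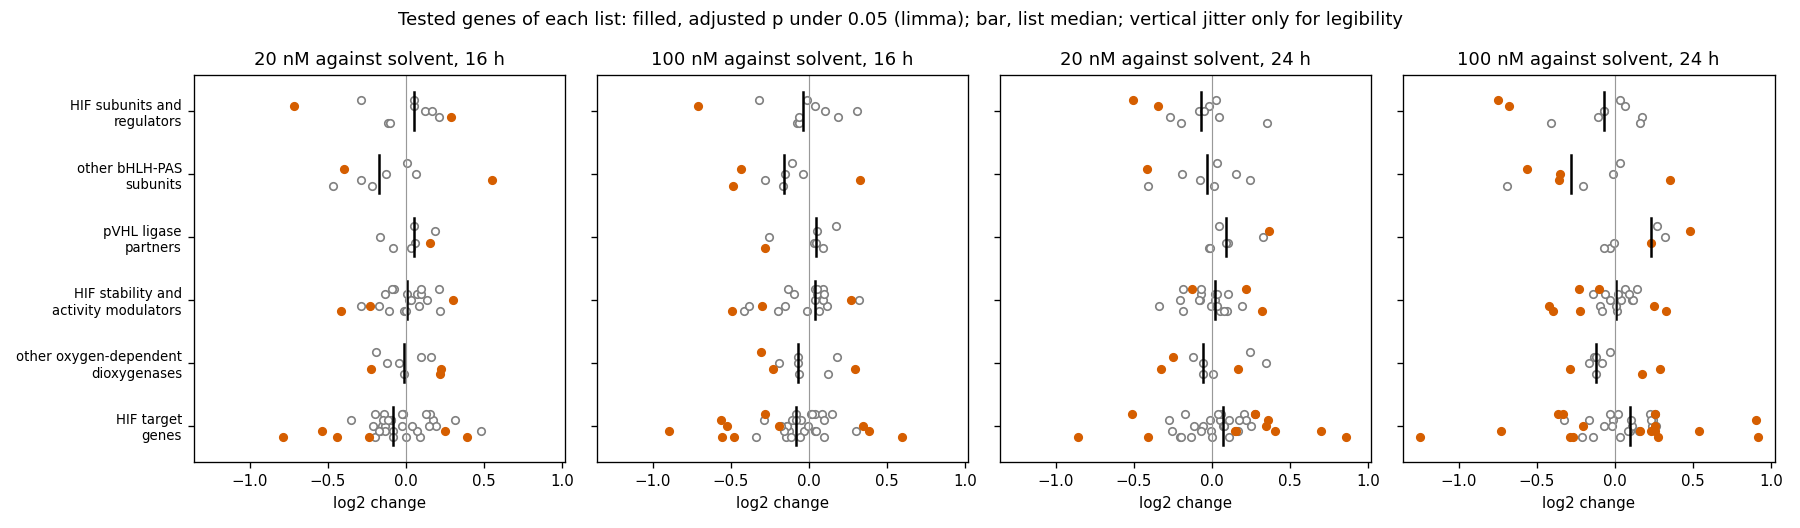
Log2 change on the log2(FPKM + 1) scale of each tested gene of the members and of the 5 other lists in the 4 drug comparisons; filled points have a limma adjusted p under 0.05, black bars are list medians, and the vertical spread of points within a list has no meaning. The 37 HIF target genes have filled points on both sides of 0 in each panel, 9 higher and 7 lower at 100 nM for 24 h.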

How the data were processed

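RNA sequencing of 12 libraries, 2 for each of 6 groups, was read from 1 deposited table. The authors deposited FPKM per gene, rounded to 2 decimals; RSEM 1.2.28 and GRCh38 are named in the submitters' processing notes, and the library kit was directional per the labels' protocols. Aligner, annotation release and strand setting are not given in the sources used. Column headers name each library's group without the labels' sample number. GENCODE 29 symbols were joined by gene ID for 57836 of 58174 genes. Genes with at least 1 FPKM in at least 2 of 12 libraries were tested with limma 3.58.1 (R 4.3.3) on log2(FPKM + 1), with 6 group means, a mean-dependent prior and 9 contrasts. FPKM holds no counts, so no count test was run. The test was also run on simulated data with independent noise and fewer changed genes than were called here. That run does not measure the share of false calls in these data. Alternatives were the pseudocount, the filter, the scaling, the prior, 1 time point alone and each library left out; scaling to a nuclear-gene sum and adding overlapping same-strand transcripts were chosen after seeing the data. The members, lists and tests were chosen with earlier results of these data known. All 10 members are named, with the genes that overlap them and carry a member's symbol or exceed 1 FPKM; other genes are the 3 closest to HIF1A and to HIF1AN and list genes chosen after their values were seen. The values of 1 listed gene are not reported here.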

Additional observations from a re-analysis of the deposited data

Results flagged for a closer look

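The change of the drug's effect between 24 h and 16 h was tested by itself with limma, adjusted over all tested genes, and none of the 10 members passed. For the 20 nM effect it was called for 4 of 21 modulators (3 higher, 1 lower) and 7 of 37 HIF target genes (4 higher, 3 lower), and for none of the other 3 lists, against 11.5% of all tested genes. For the 100 nM effect it was called for 3 of 7 pVHL partners and 2 of 21 modulators, all higher, and for 7 of 37 target genes (4 higher, 3 lower), against 10.2% of all tested genes. The 7 genes given next are among those that were also called against solvent at both doses of 1 time, so they were chosen by their values; changes are 24 h minus 16 h on the log2(FPKM + 1) scale. For the 20 nM effect, the change was 0.51 for SENP1 (adjusted p = 0.0191), 0.26 for SIAH1 (adjusted p = 0.0412), -0.26 for HK2 (adjusted p = 0.0324) and -0.38 for SIAH2 (adjusted p = 0.00666). The 20 nM libraries at 24 h in these changes are libraries 7 and 8, which stand apart from each other. For the 100 nM effect, the change was 0.53 for CITED2 (adjusted p = 0.0272), 0.43 for ELOC (adjusted p = 0.0380) and -0.69 for P4HA2 (adjusted p = 0.00995). These 7 changes were not refitted under any alternative. Common-sum (TPM) scaling called the change of the 20 nM effect higher for 346 genes and lower for 2116, against 950 and 600 as reported. Under it, CITED2 did not pass against solvent at 100 nM for 24 h (0.24, limma adjusted p = 0.0792).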

How the results depend on the processing

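The fall of HIF1AN held in direction under every alternative run, and its calls at 16 h and at 100 nM for 24 h held under each. The number of members called at 20 nM for 24 h was 1 with a pseudocount of 0.1 or 0.5, 1 with a minimum of 5 FPKM (EGLN3 not tested) and 0 with no filter, where HIF1AN had a limma adjusted p of 0.0537. In the same order, those fits called 3838 and 3856 of 13458 genes, 3550 of 9950 and 3127 of 28271. The reported fit called 3880 of 13458 there. At 20 nM for 16 h the number of members called was 1 with no filter and 1 with that time point alone. Those fits called 1722 of 28271 and 1982 of 13458 genes there, against 2388 of 13458 as reported. At 100 nM for 24 h, 1 member was called with a minimum of 5 FPKM, where 4055 of 9950 genes were called. Median-of-ratios scaling gave 2 at 100 nM for 16 h, adding CREBBP (adjusted p = 0.0396), and 3 at 100 nM for 24 h, again adding CREBBP (adjusted p = 0.0411), and common-sum (TPM) scaling gave 1 for the change of the 20 nM effect, CREBBP (-0.43, adjusted p = 0.0142). The median of all tested genes was -0.14 in that change, and TPM scaling called 2462 of 13458 genes there. Median-of-ratios scaling called 3293 of 13458 genes at 100 nM for 16 h and 4660 at 100 nM for 24 h. At 100 nM for 24 h, ARNT was called under TPM (-0.50, limma adjusted p = 0.0281) and under the nuclear-gene sum (-0.48, adjusted p = 0.0402). The medians of all tested genes there were -0.11 and -0.09. A fit of the 24 h libraries alone called EP300 at 20 nM (0.35, limma adjusted p = 0.0304). With 1 library left out, its group held only 1, so counts of members called are not given for those fits. Calls that ended in them are given with each gene. Under TPM, VHL at 20 nM for 24 h was -0.16 (limma adjusted p = 0.0306), against 0.02 (adjusted p = 0.723) as reported. JMJD6, 1 of the other oxygen-dependent dioxygenases, was -0.021 (adjusted p = 0.783), against 0.17 (adjusted p = 0.0369) as reported. Both were thus reversed in sign. The median of all genes was -0.16 there, and 573 genes rose and 4662 fell, against 1984 and 1896 as reported. No paired analysis was possible because the columns carry no sample number of the labels. Unknown depth and 2 libraries per group limit low genes such as EGLN3.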
